A study of Mus musculus with 12 samples.

Results

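The CCAAT/enhancer-binding proteins (C/EBPs) were followed in oligodendrocyte precursor cells (OPCs) of the mouse, proliferating progenitors of the myelin-forming oligodendrocytes, in culture. The set holds 4 named genes, Cebpa, Cebpb, Cebpd and Cebpg, of the 55536 genes to which transcripts could be assigned. The rule lists the genes by name, with earlier results of these data known, and all 4 passed the filter on low counts (at least 10 reads in at least 4 libraries), as did 17919 genes in all.

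Brains of pups aged P4 to P6 were pooled, and OPCs were taken either by sorting for Sox10-GFP or with magnetic beads against CD140a (the PDGF receptor α). The study's methods describe the mouse line as Sox10:Cre crossed with RCE:loxP(EGFP), in which GFP marks every cell with a history of Sox10 expression and not OPCs alone. The cell type label reads Sox10GFP+ OPCs for every library, while the protocol names both selections and not which library came from which. The labels of all libraries also give "EAE" (an induced autoimmune disease) as the mouse model. The study's methods describe EAE in older males and no such induction in the pups used for culture. All cultures grew with the mitogens PDGFaa and bFGF and were left without treatment (Ctr), or received 1 µM of the synthetic glucocorticoid dexamethasone (Dexa) or the cytokine IFN-γ (IFNg in the labels) at 100 ng/ml, in each case for 48 h. Each group has 4 libraries from different litters, and libraries with the same replicate number were treated as pairs. The study's methods do not state whether libraries of the same number share a litter. Total RNA was sequenced, and 11 libraries held 19209059 to 52074655 reads in genes. The table of Dexa replicate 3 ended part-way and lists Cebpd but not Cebpa, Cebpb or Cebpg, so this library enters only where it is named.

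C/EBP factors are basic leucine zipper (bZIP) proteins that bind DNA as pairs, with each other or with other bZIP proteins. C/EBPα is known for driving differentiation and restraining division in myeloid, liver and fat cells. C/EBPβ and C/EBPδ are early mediators of inflammatory and hormonal signals, with acute-phase genes among their targets, and Cebpd is a classical glucocorticoid-induced gene. C/EBPγ lacks a strong activation domain and acts mainly as a partner of other bZIP proteins, among them ATF4 in the response to amino acid shortage and oxidative stress.

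On GRCm38, Cebpa lies on chromosome 7 from 35119293 to 35121928 on the plus strand, and Cebpg lies 62720 bases away on the same chromosome, from 35046422 to 35056573 on the minus strand. Cebpb is on chromosome 2 from 167688915 to 167690418 (plus strand) and Cebpd on chromosome 16 from 15887286 to 15891031 (plus strand). The exons of the opposite-strand gene Tmem189 cover 20.7% of the exon bases of Cebpb, and those of the opposite-strand gene Spidr cover 15% of those of Cebpd. For Cebpa, 1.93% is shared with the antisense gene Gm45091, which held 0 to 7 reads per full library. The library kit keeps strand, but the strand setting of the counting is not given in the sources used here, so reads in the shared bases cannot be assigned with certainty.

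The sequences just before the RefSeq starts are shown for Cebpa, Cebpb and Cebpg, the 3 genes called higher with IFN-γ below, to set their core promoter letters side by side. Each is the 250 bases before the start (RefSeq, GRCm38.p6), written 5′ to 3′ on the gene's strand, with matches to the motifs below in capitals. The windows are chr7:35119043-35119292 (plus) for Cebpa, chr2:167688665-167688914 (plus) for Cebpb and chr7:35056567-35056816 (minus) for Cebpg.
Cebpa: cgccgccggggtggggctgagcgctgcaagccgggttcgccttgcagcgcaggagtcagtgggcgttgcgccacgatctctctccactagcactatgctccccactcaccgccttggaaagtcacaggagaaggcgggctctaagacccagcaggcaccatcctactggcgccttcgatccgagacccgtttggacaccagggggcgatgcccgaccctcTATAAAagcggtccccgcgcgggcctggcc
Cebpb: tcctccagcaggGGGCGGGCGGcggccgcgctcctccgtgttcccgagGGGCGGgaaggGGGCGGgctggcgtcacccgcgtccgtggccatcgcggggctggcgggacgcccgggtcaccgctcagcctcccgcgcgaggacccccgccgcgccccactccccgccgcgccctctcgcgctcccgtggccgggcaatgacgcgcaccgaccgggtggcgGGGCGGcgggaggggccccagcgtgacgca
Cebpg: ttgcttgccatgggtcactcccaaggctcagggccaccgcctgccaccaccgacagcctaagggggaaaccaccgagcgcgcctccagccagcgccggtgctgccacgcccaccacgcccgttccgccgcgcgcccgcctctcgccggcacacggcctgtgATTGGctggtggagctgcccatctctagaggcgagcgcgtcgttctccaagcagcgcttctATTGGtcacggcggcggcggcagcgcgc

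The Cebpa window holds a TATA box (TATAAA) from 30 to 25 bases before the start, a motif found in 12.4% of 32817 promoter windows of that length. The Cebpb window, with a GC content of 81.6% against a median of 52.4% over all windows, holds 5 GC boxes (GGGCGG), of which the pair farthest from the start overlap, and 32.7% of all windows hold at least 1. The Cebpg window holds the CCAAT box (CCAAT) at 2 positions, both read on the opposite strand as ATTGG, and 33.8% of all windows hold it. Both strands were searched. No match was present in these 3 windows to the core of the glucocorticoid receptor motif (ACANNNTGT, in 5.84% of all windows), an IRF motif (GAAANNGAA, 7.12%), the cAMP response element (TGACGTCA, 1.55%), the AP-1 motif (TGANTCA, 6.75%) or a C/EBP motif (TTGCNNCAA, 1.74%). A match describes letters only, and its absence concerns these windows only.

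The treatments were first checked with genes known to respond to them. Irf1, an interferon-induced transcription factor, had in Ctr-OPCs 364 ± 31.9 normalized counts (SD, n = 4) and with IFN-γ 23607 ± 983 (SD, n = 4). The glucocorticoid targets Fkbp5 and Per1 had 4006 ± 636 and 1159 ± 60.9 (SD, n = 3) in Dexa-treated OPCs, against 1444 ± 254 and 357 ± 43.1 in Ctr-OPCs. Normalized counts are reads divided by DESeq2's size factor for the library. All 8 OPC markers examined were measured, with a summed normalized count of 173634 to 300340 in Ctr-OPCs, 198742 to 321219 in Dexa-treated OPCs and 128529 to 262557 in IFN-γ-treated OPCs. With IFN-γ, 5 of these 8 markers (Pdgfra, Cspg4, Sox10, C1ql1 and Vcan) were called lower than in Ctr-OPCs by the test described below. Without the replicate number in the model 1 of the 8 (C1ql1) was called lower. Of all tested genes 29.2% were called in that comparison, and 12.8% without the replicate number.

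The family was read first in untreated OPCs, per transcript length (as TPM, the share of a library's length-scaled reads), which allows genes of one library to be set side by side. Cebpg was by far the most abundant member, at 7.17 ± 0.189 TPM (SD, n = 4) and 86.8% ± 3.28 of the summed TPM of the 4 genes. Cebpd followed at 0.511 ± 0.199 TPM and Cebpa at 0.451 ± 0.0704 TPM. These neighbours in the order lay within their spread, with Cebpd above Cebpa in 3 of 4 Ctr libraries. Cebpb was lowest, at 0.142 ± 0.0723 TPM, and lay below Cebpa and Cebpd in 4 of 4 Ctr libraries.

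The order below Cebpg differed between treatments. In Dexa-treated OPCs Cebpd was at 1.24 ± 0.642 TPM (SD, n = 4, Dexa replicate 3 included), above Cebpa at 0.761 ± 0.362 TPM (SD, n = 3) in 3 of 3 libraries, and Cebpb was again lowest at 0.202 ± 0.154 TPM (SD, n = 3). With IFN-γ the order was Cebpa at 1.31 ± 0.886 TPM, Cebpb at 0.603 ± 0.198 TPM and Cebpd at 0.41 ± 0.147 TPM (SD, n = 4), and Cebpb lay above Cebpd in 4 of 4 libraries. Cebpd thus held 13.9% ± 3.64 of the summed TPM in Dexa-treated OPCs (n = 3) and 3.2% ± 0.539 in IFN-γ-treated OPCs (n = 4), against 6.09% ± 2.09 in Ctr-OPCs. Cebpg stayed the main member with 77% ± 6.32 in Dexa-treated OPCs and 82.2% ± 4.96 in IFN-γ-treated OPCs. These are descriptions with no test. Of the kin, Ddit3 (CHOP, a C/EBP-related factor that blocks other C/EBPs) stood at 7.7 ± 1.1 TPM in Ctr-OPCs, close to Cebpg, while Cebpe, a factor of late granulocytes, held 0 or 1 read in every library and was not tested.

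**Figure D1:**
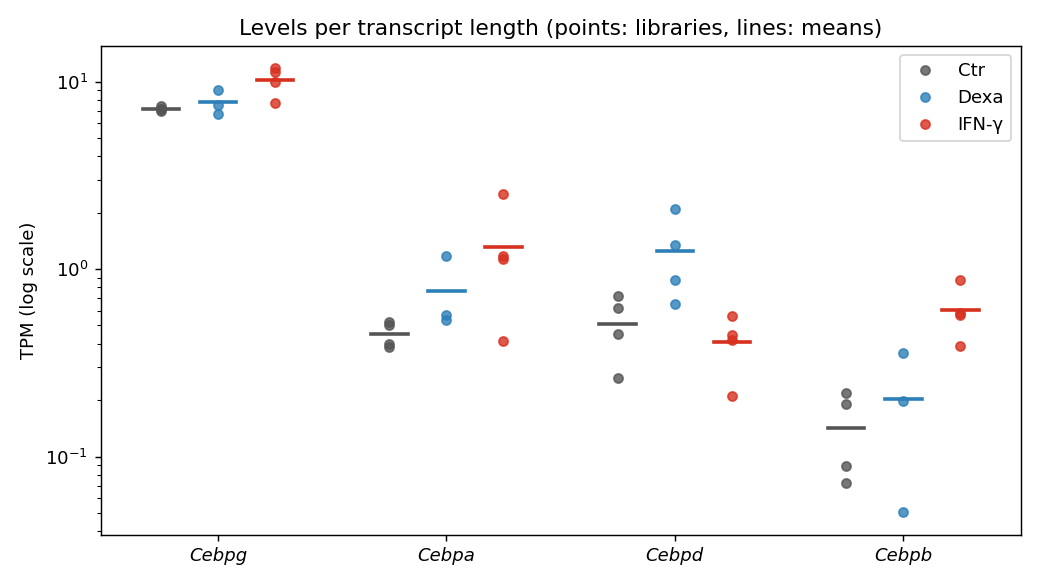
TPM on a log axis for the 4 C/EBP genes in Ctr-, Dexa- and IFN-γ-treated OPCs; points are libraries and lines are group means. Cebpg lies above the others in every library, and Cebpb is lowest in Ctr but above Cebpd in all 4 IFN-γ libraries.

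IFN-γ raised Cebpa, Cebpb and, by a small amount, Cebpg over Ctr-OPCs, and Cebpd was not among the genes called. Calls were made with DESeq2 at an adjusted p under 0.05 over all tested genes, with the replicate number in the model, and edgeR's quasi-likelihood test with the same block is given beside it. In this comparison 3 of 4 members were called, all 3 higher, where 29.2% of all tested genes were called (15.2% higher with IFN-γ). With edgeR the same 3 members were called, where 31.3% of all genes were. In DESeq2 without the block, 2 of 4 members were called, where 12.8% of all genes were.

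Cebpb gave the largest fold of the members. Its normalized counts were 14.7, 14.2, 4.82 and 6.52 in Ctr replicates 1 to 4 and 36.8, 48.1, 28 and 34.7 in the IFN-γ libraries. Every IFN-γ library lay above every Ctr library, with ratios of 2.5, 3.38, 5.8 and 5.32 within the pairs. The fitted change was 3.98-fold (log2 1.99 ± 0.44 SE; adjusted p = 6.04e-05 with DESeq2 and 0.00145 with edgeR). Behind these values stand 6 to 23 reads in the Ctr libraries and 24 to 51 in the IFN-γ libraries, so the size of the fold is loosely set, with a 95% interval of 2.17 to 7.27. Tmem189, which shares exon bases with Cebpb on the other strand, changed by log2 -0.10 ± 0.09 SE with IFN-γ (adjusted p = 0.429 with DESeq2). Tmem189 held 1078 ± 136 normalized counts in Ctr-OPCs, far above Cebpb. Its fold therefore cannot show whether some of its reads were counted for Cebpb.

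Cebpa was at 62.4, 51.4, 42 and 43.4 normalized counts in Ctr replicates 1 to 4 and at 247, 97.2, 54.8 and 108 in the IFN-γ libraries. The groups overlapped, since IFN-γ replicate 3 lay within the Ctr range, but each IFN-γ library was above the Ctr library of its own number, by 3.96-, 1.89-, 1.3- and 2.48-fold. The fitted change was 2.25-fold (log2 1.17 ± 0.25 SE; adjusted p = 2.48e-05 with DESeq2 and 0.00294 with edgeR). The spread between IFN-γ libraries was wide (127 ± 83.6, SD, n = 4). Salmon assigned most Cebpa reads to the 2-exon transcript Cebpa-202 in the other 10 full libraries, while in IFN-γ replicate 3 it gave 46.8 reads to Cebpa-201 and 0.195 to Cebpa-202. The gene total is used here because the split between these transcripts, which share most of their sequence, is uncertain.

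Cebpg, the abundant member, moved least. It held 1490, 1348, 1269 and 1353 normalized counts in Ctr replicates 1 to 4 and 1852, 1733, 1406 and 1578 in the IFN-γ libraries. The groups overlapped, and IFN-γ was higher in 4 of 4 pairs by 1.24-, 1.29-, 1.11- and 1.17-fold. The fitted change was 1.2-fold (log2 0.26 ± 0.08 SE; adjusted p = 0.00526 with DESeq2 and 0.00967 with edgeR). This call was lost without the replicate block (adjusted p = 0.121 with DESeq2). It was also lost without Ctr replicate 1 (adjusted p = 0.0647), Ctr replicate 2 (0.0653), Ctr replicate 4 (0.0615) or IFN-γ replicate 2 (0.0789).

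Cebpd did not pass the threshold with IFN-γ over all genes. Normalized counts were 130, 116, 47.5 and 90.1 in Ctr replicates 1 to 4 and 97.4, 67, 40.8 and 70.6 in the IFN-γ libraries, lower in 4 of 4 pairs, with overlapping groups. The fitted change was 0.723-fold (95% interval 0.553 to 0.946; log2 -0.47 ± 0.20 SE; adjusted p = 0.0593 with DESeq2 and 0.0527 with edgeR). Over the 6319 genes that Dexa replicate 3 also lists, a fit of all 12 libraries gave log2 -0.47 and an adjusted p of 0.0425, or 0.555 without the block.

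**Figure D2:**
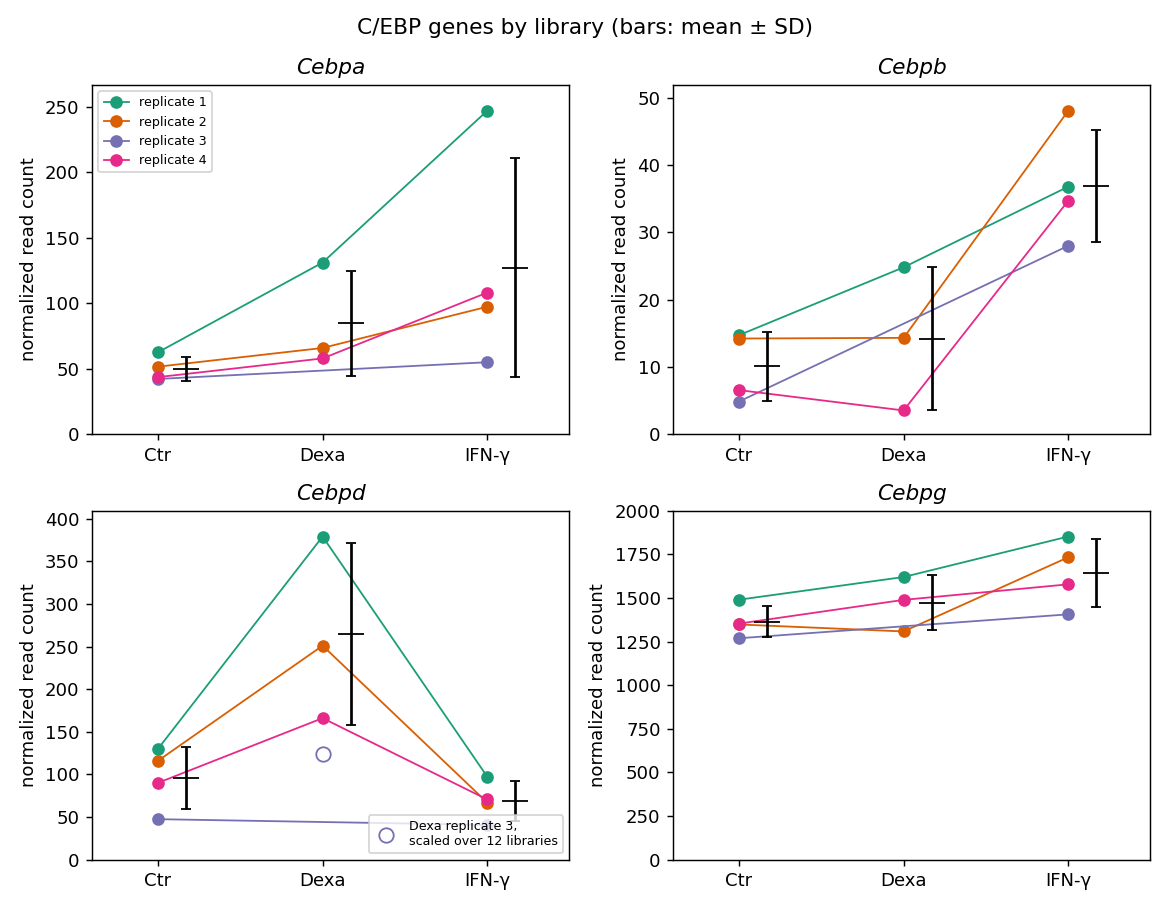
Normalized read counts of the 4 C/EBP genes in each library, with lines joining libraries of the same replicate number and black bars giving the group mean ± SD; Dexa replicate 3 is absent except for Cebpd, where the open point is on the scale of the 12-library fit. Cebpa and Cebpb are highest with IFN-γ and Cebpd with Dexa, and replicate 1 is the highest library for Cebpa and Cebpd in each group.

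With dexamethasone Cebpd rose over Ctr-OPCs, and the 3 other members were not called. In this comparison 1 of 4 members was called, where 2.57% of all tested genes were called (2.05% higher with Dexa). With edgeR the same member was called, where 1.57% of all genes were. Cebpd stood at 379, 251 and 166 normalized counts in Dexa replicates 1, 2 and 4. All 3 lay above every Ctr library, by 2.91-, 2.17- and 1.84-fold within the pairs. The fitted change was 2.35-fold (log2 1.23 ± 0.20 SE; adjusted p = 1.93e-07 with DESeq2 and 0.00468 with edgeR). Dexa replicate 3, which took no part in that fit, held 124 against 44.9 for Ctr replicate 3 on the scale of the 12-library fit, a ratio of 2.75. With all 12 libraries the change was log2 1.25 ± 0.18 SE (adjusted p = 3.35e-10 with DESeq2 and 0.00175 with edgeR). Without the block the adjusted p of Cebpd was 0.0492 with DESeq2 and 0.546 with edgeR. Spidr, which shares exon bases with Cebpd on the other strand, changed by log2 -0.11 ± 0.12 SE (adjusted p = 0.941 with DESeq2).

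Of the others, Cebpa was at 131, 65.7 and 57.7 normalized counts in Dexa replicates 1, 2 and 4, above its Ctr library in 3 of 3 pairs. The fitted change was 1.39-fold (adjusted p = 0.702 with DESeq2). Its 95% interval of 0.945 to 2.05 overlapped that of Cebpd, 1.78 to 3.08. Cebpb was at 24.8, 14.3 and 3.49, higher in 2 of 3 pairs, and its interval of 0.606 to 2.55 covers changes in either direction (1.24-fold, adjusted p = 0.987). Without Dexa replicate 1 its direction turned (log2 -0.27). Cebpg was at 1620, 1308 and 1489, and its fitted change of 1.04-fold had an interval of 0.917 to 1.17 (adjusted p = 0.988).

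The treatments were then set against each other, which tests whether their effects on a member differ. Here 3 of 4 members were called (Cebpa and Cebpb higher with IFN-γ, Cebpd lower), where 31.6% of all tested genes were called (16.2% higher with IFN-γ). Cebpd was lower with IFN-γ than with Dexa by log2 -1.70 ± 0.21 SE, or 0.308-fold (adjusted p = 1.25e-14 with DESeq2 and 4.19e-05 with edgeR), and no Dexa library lay within the IFN-γ range. Cebpb was 3.2-fold higher with IFN-γ (log2 1.68 ± 0.50 SE; adjusted p = 0.00399 with DESeq2 and 0.00928 with edgeR), with no overlap of the groups. That call was lost without Dexa replicate 2 (adjusted p = 0.0727) or Dexa replicate 4 (0.0696), and without the block (0.0865). Within the pairs the Cebpb ratio ran from 1.48 in replicate 1 to 9.92 in replicate 4, where the Dexa library held 2 reads.

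The difference between treatments was least settled for Cebpa and Cebpg. Cebpa was 1.62-fold higher with IFN-γ than with Dexa (log2 0.70 ± 0.28 SE), past the threshold with DESeq2 (adjusted p = 0.0409) and not with edgeR (0.052). Leaving out any of 8 of the 11 libraries ended the DESeq2 call (adjusted p of 0.0631 to 0.319), namely replicates 2 and 4 of each group, Dexa replicate 1 and IFN-γ replicate 1. Cebpg was 1.16-fold higher (95% interval 1.02 to 1.31), not called by DESeq2 (adjusted p = 0.0595) but called by edgeR (0.0425), where 33.7% of all genes were called. The comparisons with Ctr share their Ctr libraries, so each is given by its own values.

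**Figure D3:**
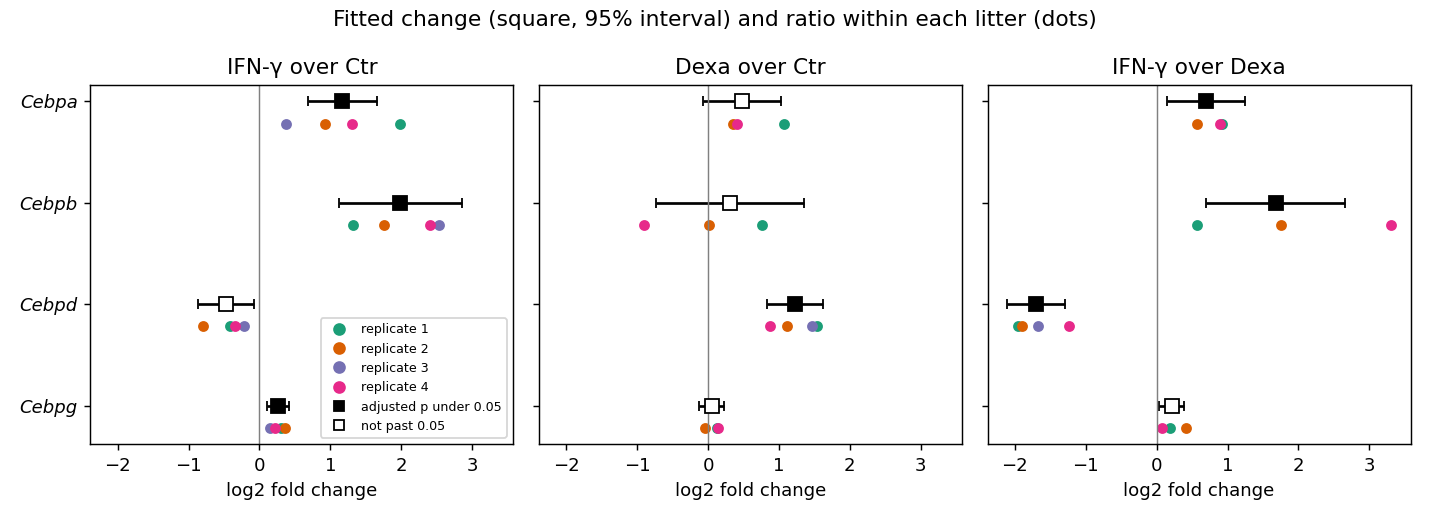
Log2 fold changes of the 4 C/EBP genes in the 3 comparisons; squares are DESeq2 estimates with 95% intervals, filled where the adjusted p was under 0.05, and dots are the ratios within each replicate number. Cebpd lies right of 0 for Dexa and left of 0 for IFN-γ in every pair, and Cebpb has the widest intervals.

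Replicate numbers differed for the low members beside the treatments. Replicate 1 was the highest library for Cebpa and for Cebpd in each group, and replicate 3 the lowest for both genes in Ctr- and IFN-γ-treated OPCs. Over the 11 full libraries, log2 normalized counts of Cebpa and Cebpg correlated at r = 0.90 and those of Cebpa and Cebpb at 0.70, while Cebpd correlated with the others at -0.10 to 0.24. These libraries share replicate numbers and treatments, so the values are descriptions only. Among 13389 genes with a mean of at least 50 normalized counts, those with the pattern most like Cebpd were Glul, glutamine synthetase (r = 0.979), Dgkz (0.975) and Myl9 (0.968). For Cebpb (among 13390 genes) they were Brip1 (0.971), Pidd1 (0.969) and Slc2a9 (0.967), for Cebpa Fnbp1 (0.954), Tulp3 (0.946) and Tmem198b (0.938), and for Cebpg Eid3 (0.951), Dcbld2 (0.944) and Ndufaf5 (0.940).

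Markers of other cells the cultures could hold were read beside the members, since myeloid cells, astrocytes and vessel cells use C/EBP factors. In bulk RNA, fewer cells of a type and less RNA per cell cannot be told apart. Microglia and macrophage markers were near background: 3 of 12 passed the count filter (Csf1r, P2ry12 and Cd68), none of these 3 was called in any comparison, and the list summed to 55.4 to 94.2 normalized counts in Ctr-, 64.8 to 87.4 in Dexa- and 77.5 to 85.1 in IFN-γ-treated OPCs. The mean sums were 76.8, 77.1 and 82.7. The 9 markers under the filter stayed at or under 8.95 normalized counts in every full library. With IFN-γ the means of some were higher than in Ctr-OPCs (Aif1 at 1.97 against 0.574, Cx3cr1 at 1.35 against 0.155), while others, such as Spi1 and Tyrobp, were at 0 in all 4 IFN-γ libraries.

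Astrocyte markers were present in all libraries, with all 7 tested and sums of 17004 to 51258 in Ctr-, 36531 to 65969 in Dexa- and 34781 to 52190 in IFN-γ-treated OPCs. Of these, 2 were called higher with Dexa (Gfap and Aldoc), and with IFN-γ 4 were called higher and 2 lower. With edgeR 1 was higher with Dexa (Aldoc; Gfap had an adjusted p of 0.108), and with IFN-γ 3 were higher and 2 lower. Over all tested genes DESeq2 called 29.2% with IFN-γ and 2.57% with Dexa. The astrocyte sum was highest in replicate 1 of each group (51258, 65969 and 52190). It was lowest in replicate 3 of Ctr- and IFN-γ-treated OPCs (17004 and 34781). These were the same libraries that were highest and lowest for Cebpa and Cebpd. Endothelial and pericyte markers, of which 5 of 6 were tested, summed to 206 to 376 with Dexa, 132 to 208 in Ctr and 99.4 to 176 with IFN-γ, the same order as Cebpd. Of these, 1 was called higher with Dexa (Flt1) and 2 were called lower with IFN-γ (Kdr and Vtn). Fibroblast-like markers (4 of 4 tested) summed to 6.43 to 217 in Ctr-, 14 to 151 in Dexa- and 24.8 to 300 in IFN-γ-treated OPCs. With IFN-γ 1 was called higher (Lum, 18.2-fold, adjusted p = 2.22e-18 with DESeq2) and 0 lower, with none called with Dexa. With edgeR 1 was called lower with IFN-γ (Dcn, adjusted p = 0.0284) beside 1 higher. Lum was at 7.39 ± 9.63 normalized counts in Ctr- and 4.61 ± 4.2 in Dexa-treated OPCs, so its place among the tested genes rests largely on its IFN-γ libraries. Neuronal markers (3 of 4 tested) summed to 463 to 559, 564 to 678 and 569 to 832. Of these, Syt1 was called higher and Snap25 lower with IFN-γ, and Snap25 was called higher with Dexa. Cldn5, a defining endothelial gene, stayed at or under 1.99 normalized counts. None of these lists has a marker at 0 in every full library. Their part in the C/EBP results was not tested.

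Next came other bZIP genes, both partners of C/EBPs and related factors. Of 16 dimer partners and related bZIP genes 14 were tested, and with IFN-γ 9 were called higher and 0 lower (median log2 0.45, against -0.01 over all tested genes). Without the block 6 were called higher. Of all tested genes 29.2% were called with the block (15.2% higher), and 12.8% without it. Batf2, an interferon-induced bZIP factor of myeloid cells, was at 1530 ± 174 normalized counts with IFN-γ and 2.37 ± 1.2 in Ctr-OPCs. It was at most 3.44 in Ctr and 4.32 in the full Dexa libraries, so it passed the count filter through its IFN-γ libraries alone. It is among the 9 called higher. Atf3, a stress-induced repressor, rose 12.6-fold (log2 3.66 ± 0.36 SE; adjusted p = 8.12e-23 with DESeq2). The AP-1 genes Jun and Fos rose 2.96- and 2.18-fold (adjusted p = 8.6e-49 and 1.98e-11), and Jund, of the same family, was not called (log2 -0.26 ± 0.16 SE, adjusted p = 0.259). Ddit3 rose 1.28-fold, from 275 ± 40.6 to 349 ± 6.35 normalized counts (adjusted p = 0.0104 with DESeq2 and 0.0128 with edgeR). Atf4, the stress factor that pairs with C/EBPγ, was at 4587 ± 766 in Ctr- and 5331 ± 1177 in IFN-γ-treated OPCs (adjusted p = 0.0507).

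With Dexa 0 of these 14 were called higher and 1 lower: Tef, a clock-controlled PAR bZIP factor, at 0.815-fold (log2 -0.29 ± 0.08 SE; adjusted p = 0.00592 with DESeq2 and 0.0391 with edgeR). Between the treatments 8 were higher with IFN-γ and 1 lower. Among the higher genes was Batf3, at 77.6 ± 14.3 with IFN-γ and 8.03 ± 4.28 with Dexa (13.5-fold, adjusted p = 1.72e-07 with DESeq2). Of all tested genes, 2.57% were called with Dexa and 31.6% between the treatments. Cebpz, a CCAAT-binding protein outside the bZIP family in spite of its name, was at 2619 ± 482, 2416 ± 561 and 2274 ± 171 normalized counts in Ctr-, Dexa- and IFN-γ-treated OPCs and was called in no comparison.

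Regulators of the family were counted next, all 16 of them tested. With IFN-γ 6 were called higher and 1 lower (median log2 0.07). Stat3, known to induce Cebpb and Cebpd downstream of IL-6-type cytokines, rose 3.43-fold to 20250 ± 1507 normalized counts, its feedback inhibitor Socs3 2.65-fold, and the receptor genes Lifr and Osmr 2.58- and 7.32-fold (adjusted p of 2.27e-144, 4.42e-38, 1.02e-35 and 3.63e-16 with DESeq2). Il6st, the receptor chain shared by these cytokines, was not called (log2 0.17 ± 0.07 SE, adjusted p = 0.0553). With Dexa 2 were called higher and 0 lower (median log2 0.08). These were Trib1, an adaptor that sends C/EBPα for degradation, at 1751 ± 234 normalized counts (1.66-fold over Ctr-OPCs, of which replicate 3 was low at 751; adjusted p = 2.6e-07 with DESeq2 and 0.00634 with edgeR), and the glucocorticoid target Tsc22d3 (GILZ, 1.75-fold, adjusted p = 0.000101). Between the treatments 6 were higher with IFN-γ and 3 lower, and Trib1 was among the lower at 0.514-fold (adjusted p = 7.76e-14). Over all tested genes the shares called were 29.2% with IFN-γ, 2.57% with Dexa and 31.6% between the treatments. The glucocorticoid receptor gene Nr3c1 was at 3141 ± 110 in Ctr- and 2835 ± 191 in Dexa-treated OPCs (adjusted p = 0.468).

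**Figure D4:**
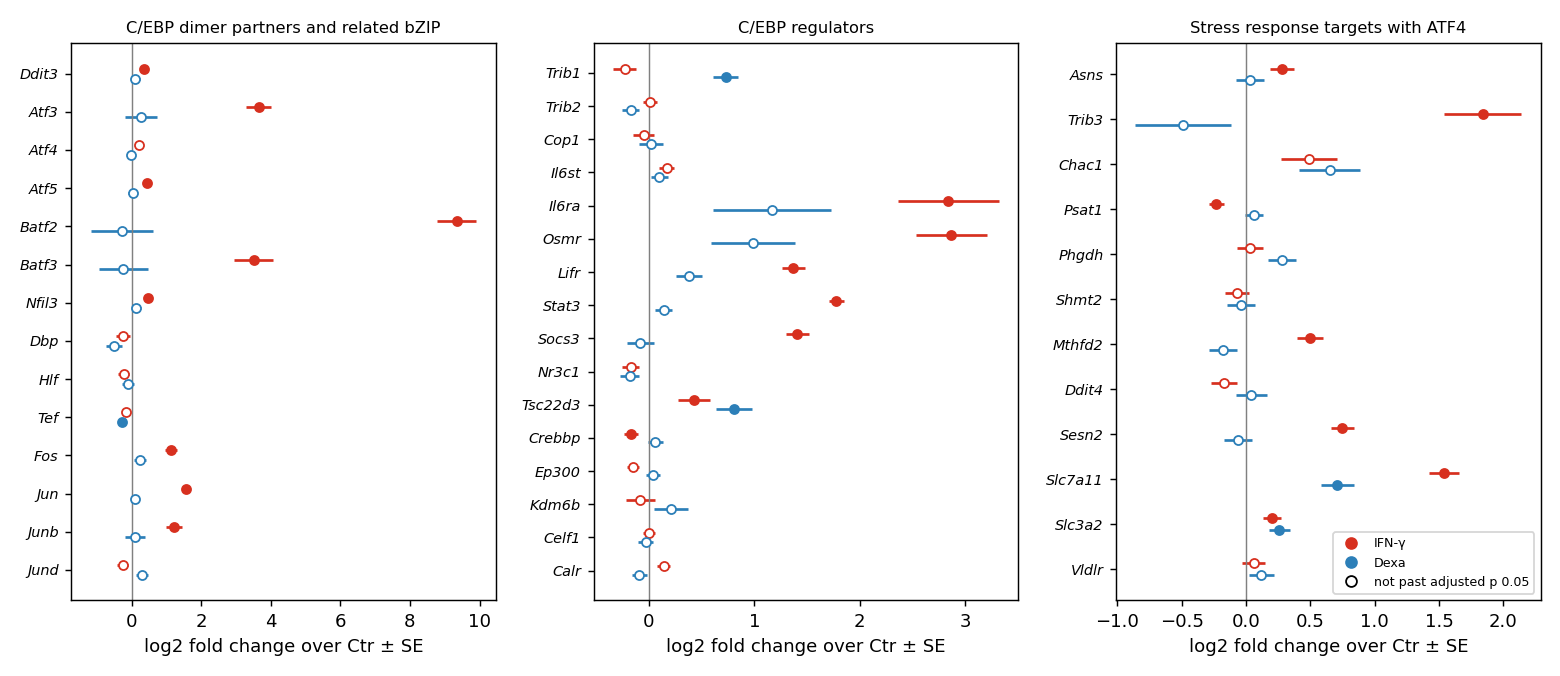
Log2 fold changes over Ctr with their standard errors for the tested genes of the partner, regulator and ATF4 lists; red is IFN-γ, blue is Dexa, and filled points have an adjusted p under 0.05. Batf2, Atf3 and Batf3 lie farthest right with IFN-γ, and Trib1 and Tsc22d3 are the only regulators with a filled Dexa point.

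Of the known targets, acute-phase and inflammatory genes were mostly near 0 in these cultures. Of 16 acute-phase and inflammatory targets 4 passed the filter (Serpina3n, Ccl2, Ptgs2 and Cp). With IFN-γ 3 of these were called higher and 1 lower (median log2 1.27): Serpina3n, an acute-phase protease inhibitor, rose 13-fold from 27.2 ± 6.66 to 373 ± 170 normalized counts, with IFN-γ replicate 1 low at 121 (adjusted p = 7.5e-46 with DESeq2), the chemokine gene Ccl2 rose 3.86-fold (2.56e-10) and Cp, ceruloplasmin, 1.51-fold (0.000324), with Ctr replicate 1 high at 538. Ptgs2, the inducible cyclooxygenase, fell to 0.447-fold (0.0269, and 0.0535 with edgeR). With Dexa 2 were called higher and 0 lower (median log2 0.78), Serpina3n at 2.34-fold and Cp at 1.56-fold, with adjusted p of 0.00361 and 0.00539 in DESeq2 but 0.0797 and 0.0636 in edgeR. Between the treatments 2 were higher with IFN-γ and 0 lower. Over all tested genes the shares called were 29.2% with IFN-γ, 2.57% with Dexa and 31.6% between the treatments.

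Lcn2, lipocalin 2, a classical target of C/EBPβ and C/EBPδ, is described although it did not pass the filter, a choice made after its values were seen. The filter asks for 4 libraries and Dexa has 3 full ones, so a gene with enough reads in Dexa libraries alone could not pass. It held 35, 137 and 5 reads in Dexa replicates 1, 2 and 4, and 0, 3, 0 and 0 in Ctr replicates 1 to 4. The IFN-γ libraries held 0, 34, 2 and 2. Every Dexa library lay above every Ctr library, and replicate 2 was highest in each group. In the DESeq2 fit with no filter on low counts, Dexa against Ctr gave log2 6.60 ± 1.02 SE (adjusted p = 2.24e-08). IFN-γ against Ctr gave log2 3.73 ± 1.02 SE (0.00177), and IFN-γ against Dexa log2 -2.87 ± 0.78 SE (0.00155). These values depend on how counts near 0 are treated. Other acute-phase genes, such as Saa3, Hp and C3, stayed at or under 13.2 normalized counts in every full library.

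Adipogenic and metabolic targets, 7 of 12 tested, had 2 called higher and 1 lower with IFN-γ (median log2 0.16), 0 in either direction with Dexa (median log2 -0.05) and 2 higher with IFN-γ than with Dexa. Plin2, the lipid droplet coat gene, rose 3.09-fold with IFN-γ from 334 ± 99.5 to 1013 ± 122 normalized counts (adjusted p = 2.76e-45 with DESeq2), while Lpl, lipoprotein lipase, was at 0.577-fold (0.00104). Pparg, which C/EBPβ and C/EBPδ switch on in fat cell precursors, stayed under the filter at 14.9 normalized counts or fewer. Over all tested genes the shares called were 29.2% with IFN-γ, 2.57% with Dexa and 31.6% between the treatments.

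Targets that C/EBPγ is known to share with ATF4 were all 12 tested. With IFN-γ 6 were called higher and 1 lower (median log2 0.24), and 3 higher and 1 lower without the block. The cystine transporter gene Slc7a11 rose 2.92-fold, from 750 ± 256 to 2185 ± 796 normalized counts (adjusted p = 8.98e-38 with DESeq2), the stress-induced Sesn2 1.68-fold (6.57e-14), the pseudokinase gene Trib3 3.57-fold (7.29e-09) and the mitochondrial folate enzyme gene Mthfd2 1.42-fold (1.5e-06). The serine synthesis gene Psat1 was the called member that fell, with a log2 change of -0.23 ± 0.06 SE. With Dexa 2 were called higher and 0 lower (median log2 0.05): Slc7a11 at 1.64-fold (adjusted p = 9.11e-06 with DESeq2 and 0.0231 with edgeR) and its partner chain Slc3a2 at 1.2-fold (0.0304, and 0.0906 with edgeR). Between the treatments 4 were higher with IFN-γ and 1 lower. Over all tested genes the shares called were 29.2% with IFN-γ (12.8% without the block), 2.57% with Dexa and 31.6% between the treatments. A list's count and median describe these genes only, and no list was tested as a set.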

How the data were processed

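Total RNA-seq libraries of cultured mouse OPCs were read from the transcript tables the authors deposited. Per the study's methods and the submitters' processing notes, the authors trimmed reads and quantified them with Salmon (0.8.2), whose tables list for every transcript an estimated count and its TPM. Transcript identifiers matched GENCODE M21 (GRCm38). The authors' deposited tables of their own comparisons (fold changes and p-values) were not used. No molecular identifiers are described, so copies made by PCR count as separate reads.

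Estimated counts were summed per gene and rounded. The table of Dexa replicate 3 ended after 47855 of 141862 transcripts, so the fits over all genes hold 11 libraries, and a separate fit of 12 libraries covers the 6319 tested genes it lists whole. Groups came from the condition label. A gene was tested if 4 or more libraries held 10 counts or more (17919 genes). A gene with such counts in IFN-γ libraries alone could pass. With 3 full Dexa libraries, a gene with such counts in Dexa libraries alone could not. The numbers of list genes called with IFN-γ and with Dexa are therefore not on equal terms. The test was DESeq2 (1.42.0) in R (4.3.3), a Wald test with group and replicate number, without shrinkage, and Benjamini-Hochberg adjustment over all genes tested. The quasi-likelihood test of edgeR (4.0.16) with TMM factors is printed beside it. Both were tried on simulated counts, where each made more false calls than its threshold allows, DESeq2 more than edgeR. Libraries of the same replicate number were mostly more alike than others. Deviations from the group means correlated at 0.404 to 0.722 between libraries of the same number (10 pairs), against -0.614 to 0.495 for different numbers. The ranges overlap, with Ctr replicate 3 and Dexa replicate 4 at 0.495. The numbers were used as pairs, but these values do not settle whether they share a litter. No pair of libraries within a group agreed within sampling noise. The labels give different litters. With the replicate number in the model, p-values measure how far a treatment difference varies between replicate numbers. Spread that libraries of the same number share is taken out.

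TPM values, as deposited by the authors, served for levels between genes and have no test. They are scaled to all RNA in a library, so changes between groups were read from counts. Intervals are Wald 95% intervals. The members and gene lists were chosen with earlier results of these data known. Named from each list are up to 4 called genes per comparison with the lowest adjusted p, and genes most like a member are the 3 with the highest Pearson r on log2(normalized count + 1). Genes named beyond this rule (Atf4, Jund, Il6st, Nr3c1, Psat1, Lcn2, Saa3, Hp, C3, Pparg and single markers) were chosen after their values were seen. A gene the rule names as a check of treatment is not reported here. Promoter sequences are RefSeq's, found for 3 of 4 members. Alternatives changed the block, tool, scaling, filter and libraries.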

Additional observations from a re-analysis of the deposited data

Results flagged for a closer look

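Of 94 groups of 4 libraries examined (the Ctr and IFN-γ libraries of each named gene), 3 held a library far from the others by Dixon's test, and chance alone marks about 1 in 20. Trib1 was at 751 normalized counts in Ctr replicate 3, against 1068 to 1130 in the other Ctr libraries. Serpina3n was at 121 in IFN-γ replicate 1, against 429 to 490 in the other IFN-γ libraries, and Cp was at 538 in Ctr replicate 1, against 165 to 215. None of the 4 C/EBP genes had such a library in Ctr- or IFN-γ-treated OPCs. The 3 Dexa libraries were too few for this test.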

How the results depend on the processing

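The replicate block decided the most. Without it, Cebpg with IFN-γ was no longer called (log2 0.27 with DESeq2 and 0.27 with edgeR), nor were Cebpa (0.58 and 0.59) and Cebpb (1.32 and 1.31) between IFN-γ and Dexa, and with edgeR alone nor were Cebpa with IFN-γ (1.36) and Cebpd with Dexa (1.47, and 1.28 in DESeq2 with 12 libraries and no block). The calls over all genes without the block numbered 2302 for IFN-γ against Ctr, 98 for Dexa and 2345 between treatments with DESeq2, and 1513, 22 and 1571 with edgeR, against 5238, 460 and 5662 with the block. With the block, edgeR called 282 genes for Dexa, did not call Cebpa between treatments (0.71) and did call Cebpg (0.21). With no filter on low counts, Cebpa between treatments was not called (0.70). With 12 libraries Cebpd was called lower with IFN-γ (-0.47 with DESeq2, -0.47 with edgeR), but not without the block (-0.48). Fits over the genes Dexa replicate 3 lists test fewer genes and gave 1976, 227 and 2343 calls, 2040, 119 and 2430 with edgeR, 834, 23 and 1107 without the block, and 1847, 149 and 1983 with 11 libraries. Leaving out a library or a replicate number gave log2 changes of 0.21 to 0.30 for Cebpg with IFN-γ, -0.27 to 0.62 for Cebpb with Dexa, and 0.45 to 0.80 for Cebpa and 1.27 to 2.36 for Cebpb between treatments, and 3407 to 5006 calls for IFN-γ, 175 to 546 for Dexa and 3398 to 5230 between treatments. In the same fits Cebpa and Cebpb with IFN-γ, and Cebpd with Dexa and between treatments, were called each time (15 of 15). Cebpb rests on 2 to 51 reads per full library. The cause of the differences between settings was not tested.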
